A study of Mus musculus and Homo sapiens with 40 samples.

Results

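The sites described here are distal binding sites of CEBPA in acetylated chromatin of HPC-7 cells, a mouse hematopoietic progenitor line. They were chosen from the 47517 sites of the p42 anti-CEBPA list on the standard chromosomes. A site was a member when a peak of each of the other 3 binding lists overlapped it by at least 1 bp, when its summit lay more than 1 kb from any protein-coding start and when that summit lay inside an H3K27ac peak of both untreated cell lines. Of the 47517 sites, 3370 (7.09%) met this rule. The number fell from 47517 to 26254 with the p30 anti-CEBPA list, to 14031 with p42 anti-ER and to 13375 with p30 anti-ER. Distance left 12162, p42 H3K27ac 4192 and p30 H3K27ac 3370. They are called active distal sites below, and the 13375 sites found in all 4 binding lists are called common sites.

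The study carried out ChIP-seq on HPC-7 cells that were transduced with a retrovirus and sorted for GFP. One line carried CEBPA p42-ERT2, the full-length isoform, and the other CEBPA p30-ERT2, the shorter isoform that *CEBPA* mutations of leukemia favour, each fused to a modified estrogen receptor fragment. Binding was measured in untreated cells of each line with an antibody against CEBPA and with one against the estrogen receptor (ER) part of the fusion. H3K27ac was measured untreated and after lipopolysaccharide (LPS) at 100 ng/mL for 2 h, and H3K4me1 in untreated cells only. The methods of the study state that cells with such fusions received hydroxytamoxifen beforehand, which brings the protein into the nucleus, whereas the sample labels do not name it. The binding lists came from 1 sample each, the H3K27ac lists from 3 pooled samples and the H3K4me1 lists from 2, so differences between lists cannot be set against the spread of replicates and carry no p-values. Each cell line carries its own isoform, so line and isoform cannot be told apart. The 95% Wilson and Newcombe intervals below cover counting error over sites only, and the lists do not show how many reads they rest on.

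CEBPA is a basic leucine zipper factor that binds DNA as a dimer and directs myeloid differentiation. The p42 isoform carries amino-terminal activation domains that p30 lacks, while both share a further activation domain and the DNA-binding domain. H3K27ac marks active enhancers and promoters. H3K4me1 lies over enhancers, usually on the nucleosomes to either side of the bound factor.

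To show what lies beneath the binding summits, the reference sequence (GRCm39, plus strand) around 4 of the 10 strongest active distal sites is printed first. Strength is the mean percentile of fold enrichment over the 4 binding lists, ranked among the common sites with 0 for the strongest. Each run reaches from 50 bases before to 50 bases after the summit. Capitals mark matches to TTGCNNAA, the general C/EBP sequence, to TGATGCAA, a composite of a C/EBP and an ATF4 site, to TGACGCAA, a composite of a C/EBP and a CRE site, and to 5 sequences of other factors, all searched on both strands.
H2-T24 (chr17:36335302-36335402): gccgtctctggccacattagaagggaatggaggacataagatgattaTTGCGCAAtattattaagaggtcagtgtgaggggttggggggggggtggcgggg
Ctr9 (chr7:110623555-110623655): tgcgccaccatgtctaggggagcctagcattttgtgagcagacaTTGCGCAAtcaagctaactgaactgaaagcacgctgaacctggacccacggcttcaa
Numb (chr12:83895493-83895593): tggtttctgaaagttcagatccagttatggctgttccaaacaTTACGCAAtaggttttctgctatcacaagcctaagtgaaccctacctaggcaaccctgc
Lcmt2 (chr2:120967952-120968052): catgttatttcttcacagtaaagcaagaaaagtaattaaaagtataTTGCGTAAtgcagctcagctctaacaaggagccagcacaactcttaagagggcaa
The sites are named after the nearest protein-coding start, which need not be the gene they act on. Those near *H2-T24* and *Ctr9* held the palindrome TTGCGCAA, those near *Numb* and *Lcmt2* the related TTGCGTAA in either orientation. In each of the 10 strongest sites a TTGCNNAA match lay 0 to 8 bp from the summit.

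The next set shows the strongest active distal site at each of 6 loci of blood cell regulators. Those of *Cebpb*, *Spi1*, *Csf3r* and *Tnfaip3* carry TTGCACAA in either orientation, as TTGTGCAA is its reverse complement. Those of *Gfi1* and *Runx1* carry other C/EBP sequences.
Cebpb (chr2:167601999-167602099): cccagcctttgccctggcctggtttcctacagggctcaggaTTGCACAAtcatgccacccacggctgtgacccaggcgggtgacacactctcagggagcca
Spi1 (chr2:90928664-90928764): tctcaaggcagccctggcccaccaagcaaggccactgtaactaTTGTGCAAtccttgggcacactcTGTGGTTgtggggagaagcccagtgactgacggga
Gfi1 (chr5:107897492-107897592): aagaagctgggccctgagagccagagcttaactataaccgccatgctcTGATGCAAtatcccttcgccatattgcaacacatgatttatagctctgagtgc
Runx1 (chr16:92512455-92512555): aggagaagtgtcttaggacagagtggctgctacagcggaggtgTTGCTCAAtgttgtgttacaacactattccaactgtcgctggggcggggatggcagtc
Csf3r (chr4:125911592-125911692): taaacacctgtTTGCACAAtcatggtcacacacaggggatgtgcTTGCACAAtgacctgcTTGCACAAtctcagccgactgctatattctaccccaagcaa
Tnfaip3 (chr10:18929373-18929473): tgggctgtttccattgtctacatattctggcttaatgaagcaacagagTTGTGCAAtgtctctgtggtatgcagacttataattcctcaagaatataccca
The site near *Csf3r*, which encodes the receptor for granulocyte colony-stimulating factor, held 3 copies of TTGCACAA in a row. The site near *Gfi1*, a transcriptional repressor gene of granulocyte development, held the composite TGATGCAA in place of TTGCNNAA, and so did that of *Gadd45a*, a growth arrest gene. The site in *Spi1*, which encodes PU.1, held TTGTGCAA, that is TTGCACAA on the other strand, and a RUNX sequence to its side.

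At *Cebpa* and *Nfkbia* the strongest active distal site held none of the searched C/EBP sequences, and the former is shown.
Cebpa (chr7:34826720-34826820): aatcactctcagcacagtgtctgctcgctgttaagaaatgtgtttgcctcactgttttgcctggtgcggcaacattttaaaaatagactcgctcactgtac
A missing match says only that these letters are not in the window.

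Binding at the active distal sites was of moderate strength and depended on the antibody. These values chose the sites, so they are given as a description. Median fold enrichment over the local background was 10.2 (interquartile range 7.33 to 15.8) with anti-CEBPA in p42-expressing cells, and 9.70 (6.87 to 14.3) was the p30 value. Anti-ER gave medians of 10.8 (7.31 to 16.3) for p42 and 14.5 (9.74 to 22.4) for p30. Ranked among the common sites, the active distal sites had a median percentile of 69.2 and 62.8 with anti-CEBPA but of 40.3 and 38.1 with anti-ER. They were thus on the weaker side in both anti-CEBPA lists and on the stronger side in both anti-ER lists.

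The 7609 common distal sites outside H3K27ac in both lines (inactive distal sites) stood the other way round. Anti-CEBPA gave them median percentiles of 38.7 and 41.2, and anti-ER of 56.6 and 56.7. Only 4.42% and 4.69% of the active distal sites were in the strongest 10% of the anti-CEBPA lists, against 11.4% and 12.8% in the anti-ER lists. The 857 common sites at acetylated promoters had anti-CEBPA medians of 74.0 and 59.7 and anti-ER medians of 50.2 and 42.6. The antibodies also differed in a peak-calling setting that, among the binding lists, the anti-ER ones carry in their names, and its part in this was not tested.

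**Figure D1:**
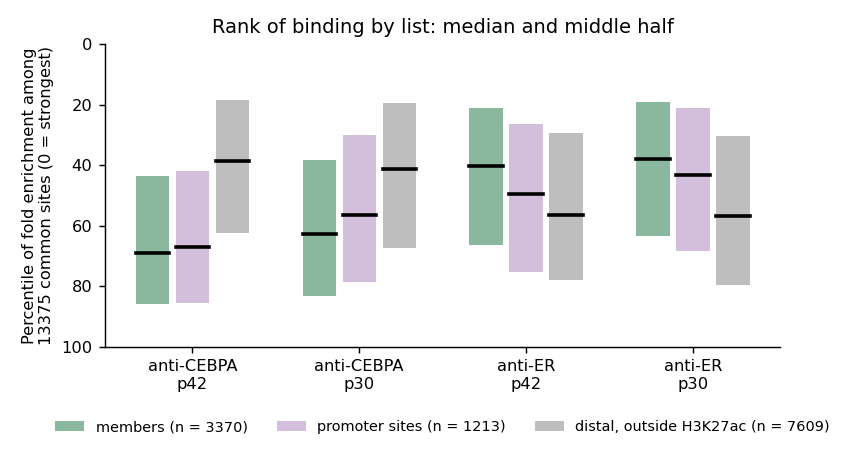
Rank of binding in each list, as the percentile of fold enrichment among the 13375 common sites with 0 for the strongest at the top, for 3370 active distal sites, 1213 common promoter sites and 7609 inactive distal sites; lines are medians and bars interquartile ranges. Active distal sites lie at medians of 69.2 and 62.8 with anti-CEBPA and of 40.3 and 38.1 with anti-ER, and inactive distal sites the other way round.

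The lists placed the same bases at the centre. Summits of the other 3 lists lay a median of 14 to 17.5 bp from the p42 anti-CEBPA summit, and 88.1% to 90% of them lay within 50 bp. Across the 3370 sites, fold enrichment correlated with a Spearman rho of 0.61 between the lines for anti-CEBPA and of 0.76 for anti-ER, and of 0.66 and 0.60 between the antibodies within p42 and within p30. The points share their libraries and come from sites chosen on these values, so rho is a description.

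The strongest site lay 3867 bp upstream of *H2-T24*, a class I histocompatibility gene. Its anti-CEBPA fold enrichment was 99.2 and 85.2 and its anti-ER fold enrichment 117 and 121, p42 before p30, an order kept below. The site 4548 bp upstream of *Ctr9*, a subunit of the PAF1 elongation complex, had 90.9, 69.6, 93.7 and 101. In an intron of *Gsr*, which encodes glutathione reductase, the values were 70.5, 73.6, 67.4 and 85.9. The 4 values of each of these sites lay near each other. The site upstream of *Itch*, a ubiquitin ligase gene, had a wider range, with 56.5, 80.1, 84.6 and 192. The other 6 of the strongest lay near *Gxylt1*, *Dazl*, *Ltbp1*, *Numb*, *Ptger2* and *Lcmt2*, and the lowest of their values was 52.6, with anti-CEBPA in p30 at *Lcmt2*.

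At loci of myeloid regulators strength varied. The best site of *Gfi1* had fold enrichments of 63.9 and 43.0 with anti-CEBPA and of 44.3 and 88.1 with anti-ER. That of *Runx1* had 39.6, 60.6, 75.5 and 145, and that of *Spi1* 47.5, 36.3, 38.1 and 38.1. The best site of *Cebpb*, which lay 71214 bp downstream of its start, had 50.4, 44.7, 34.5 and 47.1. All 4 had a mean percentile of 5.35 or less. In contrast, the sites of *Cebpa* itself (8.35, 9.23, 14.4 and 21.4), *Trib1* (9.27, 14.4, 14.6 and 16.4) and *Id2* (6.96, 11.2, 9.79 and 24.2) had mean percentiles between 42.4 and 51.1. *Trib1* encodes a pseudokinase that targets C/EBP proteins for degradation, and *Id2* an inhibitor of helix-loop-helix factors. No active distal site had *Fos*, *Csf1r* or *Cxcl10* as its nearest gene.

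The rule on distance drew a line through a continuum. Just inside it, sites in introns of *Rcsd1* and *Dse* lay 1006 and 1007 bp from a start. Just outside it, sites of *Naa25* and *Tnfaip8* lay 1000 and 999 bp from one. Their mean percentiles were 90.7 and 40.4 inside against 25.5 and 46.4 outside.

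Some active distal sites ranked differently in the 2 lines. A site leaned to a line when its rank was at least 10 percentile points stronger there with both antibodies. Of the 3370 sites, 333 (9.88%, 8.92 to 10.9) leaned to p42, against 10.5% of all common sites. A larger number, 507 (15.0%, 13.9 to 16.3), leaned to p30, against 9.98% of all common sites. Among inactive distal sites the shares were 9.78% and 6.27%, with p42 ahead. Common promoter sites leaned to p30 more often than the active distal sites, with 19.3% (17.2 to 21.6) of 1213, and to p42 in 6.92%. In 337 sites (10.0%) the antibodies pointed to opposite lines by the same margin, which is about as many as leaned to p42. The share leaning to p42 was thus near that of all common sites and near that of antibody disagreement, and the share leaning to p30 was above both but below that of promoters.

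The intronic site of *Fnip2*, which encodes a partner of folliculin, had fold enrichments of 19.2 in p42 and 5.23 in p30 with anti-CEBPA and of 16.9 and 8.83 with anti-ER. The site 56897 bp upstream of *Lrrc8d*, an anion channel subunit gene, had anti-CEBPA values of 7.12 and 14.0 and anti-ER values of 6.24 and 18.1. The widest lean by the weaker of both antibodies was that of a site 69753 bp downstream of the *Tex35* start, with 4.94 in p42 and 22.3 in p30 with anti-CEBPA and with 5.13 and 40.5 with anti-ER. TTGCNNAA was in 55.9% (50.5 to 61.1) of the sites leaning to p42 and in 43.4% (39.1 to 47.7) of those leaning to p30. RUNX sequences stood the other way, with 7.21% (4.89 to 10.5) against 14.8% (12.0 to 18.1), as did PU.1 sequences, with 2.70% (1.43 to 5.06) against 9.07% (6.87 to 11.9). In the 2530 sites without a lean, TTGCNNAA was in 53.2%, RUNX sequences in 10.1% and PU.1 sequences in 7.91%. The TTGCNNAA share of sites leaning to p42 and the PU.1 share of those leaning to p30 were near these.

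**Figure D2:**
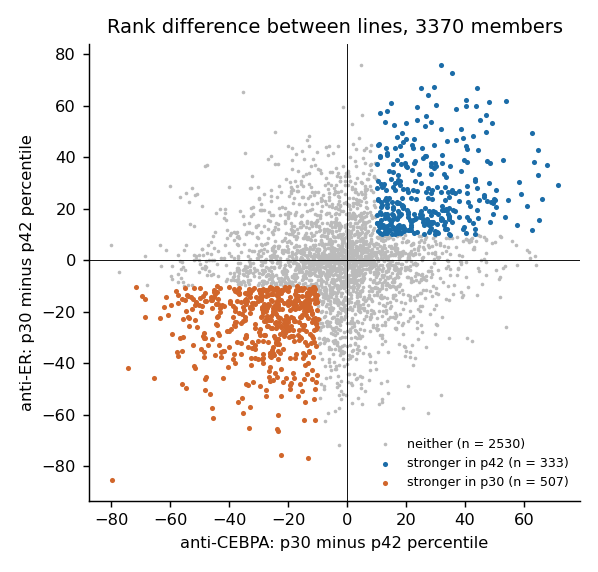
Difference in rank between lines for each of the 3370 active distal sites, as p30 minus p42 percentile with anti-CEBPA (horizontal) and anti-ER (vertical), so that values above 0 are stronger in p42. Blue points are the 333 sites leaning to p42, orange points the 507 leaning to p30, and the other 2530 are grey.

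Acetylation at the active distal sites outlasted 2 h of LPS. These lists were not used by the rule. Of the 3370 summits, 3129 (92.8%, 91.9 to 93.7) lay in an H3K27ac peak of LPS-treated p42-expressing cells and 3106 (92.2%, 91.2 to 93.0) in one of p30-expressing cells. Summits outside the LPS peaks thus made up 7.15% in p42 and 7.83% in p30, against 8.94% and 9.98% of all distal p42 anti-CEBPA sites acetylated in both untreated lines. Both lines kept 2950 sites (87.5%, 86.4 to 88.6), and neither kept 85 (2.52%). In p42 alone 156 summits lay outside the peaks, and in p30 alone 179. Most of these summits were still close to an LPS peak, since one lay within 1 kb of 99.6% of all members in p42 and of 99.0% in p30.

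Sites in weak acetylated regions made up most of those outside the LPS peaks. In the weakest quartile of the untreated peaks, with fold enrichments of 1.49 to 9.29 in p42, 82.6% (79.9 to 85.0) of the summits were in an LPS peak, against 96.9% (95.5 to 97.9) in the strongest. In p30 these shares were 76.7% (73.8 to 79.5) and 98.3% (97.2 to 99.0). No such order was seen with the strength of CEBPA binding. The shares kept ranged from 92.4% to 93.1% over quartiles of mean percentile in p42 and from 91.5% to 92.5% in p30.

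Acetylated regions with these sites were strong, and how their ranks moved with LPS depended on the strength they were compared at. Peaks of the 4 H3K27ac lists were merged, and 56649 merged regions had a peak in each list. Of these, 3089 held 3314 of the active distal sites, and 56 sites lay in no such region. The regions with an active distal site had median percentiles of 19.6 and 20.1 in p42 and of 23.7 and 25.7 in p30, untreated and with LPS in that order. In p42, 4.56% of them ranked at least 10 percentile points higher with LPS, against 17.1% of all regions, and 6.99% ranked lower, again against 17.1%. In p30, 6.22% ranked higher, against 15.9%, and 11.7% lower, against 16.2%. Of the 3089 regions, 37 ranked higher in both lines and 66 lower in both. Over all strengths the shares that moved were thus below those of all regions. In quartiles of mean untreated rank over both lines they were not below in general. Within such a quartile the starting rank in each line could still differ. In the second quartile, untreated regions with an active distal site were a median of 7.95 points stronger in p42. For regions without any binding peak this median was -2.43 points. The part of this difference in the shares below was not tested. In the strongest quartile of untreated strength, which held 1798 of the 3089 regions, 5.12% (4.19 to 6.23) ranked lower with LPS in p30, against 0.927% (0.735 to 1.17) of 7548 regions without any binding peak. In p42, 2.11% (1.54 to 2.89) did, against 1.51% (1.26 to 1.81), and higher ranks were at 0.389% in either line, against 0.503% in p42 and 0.265% in p30. In the second quartile, 9.88% of 982 regions with an active distal site ranked lower with LPS in p42, against 20.2% of 9528 regions without any binding peak. In p30, 20.8% did, against 15.6%. Higher ranks with LPS were at 6.92% against 8.59% in p42 and at 9.47% against 8.53% in p30.

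Named sites show the size of these shifts. The region of the *H2-T24* site went from percentile 18.6 to 4.59 in p42 and from 15.8 to 4.79 in p30 with LPS, and the fold enrichment of the peak over its summit from 18.1 to 43.8 and from 19.9 to 53.2. The site in *Kmt5a*, a histone H4 methyltransferase gene, lay in a region at percentile 75 in untreated p42 and 38.8 with LPS, and at 97.3 and 63.4 in p30. The sites of *Lcn4* and *Med13l* followed, with smaller gains of at least 20.7 points in each line. Fold enrichment over the *Kmt5a* summit went from 3.5 to 6.45 in p42 and from 2.49 to 4.02 in p30. At *Med13l* it went from 3.08 to 4.3 and from 3.15 to 3.31, and at *Lcn4* from 6.88 to 18 and from 5.12 to 16.5. Medians over all peaks of the 4 H3K27ac lists were between 3.14 and 3.57. On the other side the site in *Ttc7* lay in a region at 43.9 and 74.0 in p42 and at 36.2 and 60.7 in p30, and the sites of *Flrt2* and *Usp46* likewise ranked at least 24.8 points lower. The 3 sites with gains and the 3 with losses were chosen for their shifts. The *Flrt2* site held bases of the interspersed sequence described below, so its own values are uncertain. The region of the *Tnfaip3* site went from 16.4 to 11.2 in p42 and from 29.1 to 31.1 in p30, and that of *Nfkbia*, the NF-kB inhibitor gene, from 8.00 to 12.8 and from 11.5 to 9.73. The region of the *Cebpb* site ranked higher with LPS in both lines, from 8.09 to 2.75 and from 9.21 to 4.88, by less than 10 points. A region was ranked by its strongest peak, which need not lie over the site. The summit of the *Cebpb* site lay in no p42 LPS peak, while in p30 the fold enrichment over it went from 19.7 to 52.8.

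Regions with an active distal site ranked higher in p42 more often than in p30. Untreated, 808 of the 3089 regions (26.2%, against 19.7% of all regions) were at least 10 percentile points stronger in p42 and 109 (3.53%, against 20.4% of all) stronger in p30. With LPS 889 (28.8%, against 19.8%) were stronger in p42 and 112 (3.63%, against 19.6%) in p30. The sites were counted in a p42 list. Counted in the p30 anti-CEBPA list they gave 26.3% and 3.45% untreated. The rule asked for a peak in all 4 binding lists either way, so this is not an independent check.

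Regions with an active distal site were next compared with other regions of like strength, since ranks near the top have less room to move. In the strongest quartile of mean untreated rank, 9.18% of the 1798 regions with an active distal site were stronger in p42 and 0.89% in p30, against 0.384% and 2.09% of 7548 regions with no binding peak. In the second quartile, 442 of 982 regions with an active distal site (45.0%) were stronger in p42 and 60 (6.11%) in p30. Of the 9528 regions in that quartile with no peak of any binding list, 10.4% were stronger in p42 and 22.4% in p30. Regions with a p42 anti-CEBPA site outside the common sites lay between, with 37.5% and 9.14%, and regions with a common promoter site had 41.2% and 7.06% of 85. Regions with CEBPA sites of the other kinds thus had the same direction as those with active distal sites.

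**Figure D3:**
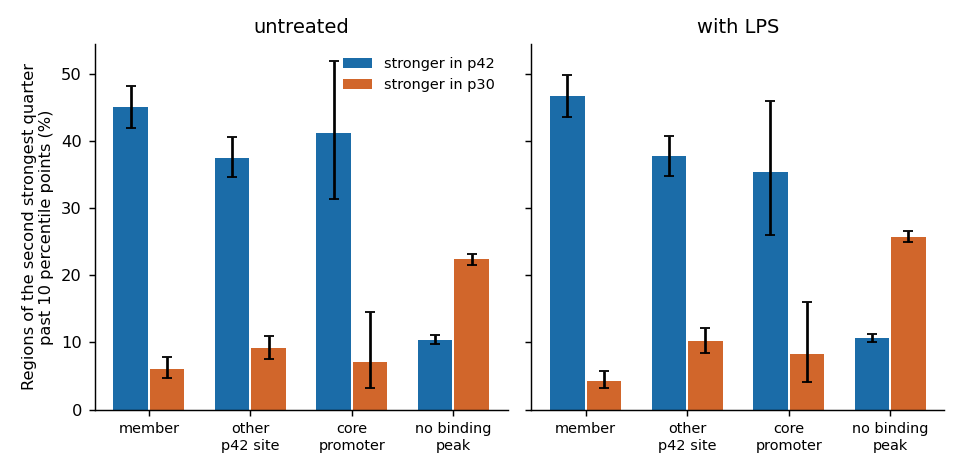
Share of H3K27ac regions of the second quartile of untreated strength that ranked at least 10 percentile points higher in p42 (blue) or in p30 (orange), untreated and with LPS, by what the region holds; bars are percent with Wilson 95% intervals. Regions with an active distal site stand at 45.0% and 6.11% untreated, and regions with no binding peak at 10.4% and 22.4%.

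The lean of binding and that of acetylation went together at p42. Of the 325 sites leaning to p42 that lay in such a region, 46.8% had a region stronger in p42 and 1.85% one stronger in p30, with a median difference of 8.00 percentile points. Of the 504 leaning to p30, 9.33% had a region stronger in p42 and 5.36% one stronger in p30, with a median of 0.427 points. The 2485 without a lean had 25.5% and 3.10%. Sites bound more strongly in p30 hence lay in regions of about equal rank, not in regions that were stronger in p30. These groups were not split by region strength. Among untreated regions with an active distal site, 9.18% of the strongest quartile but 66.9% of the third were stronger in p42. The part of region strength in this link was not tested. Among the named sites, the region of *Fnip2* lay at percentile 24.2 in p42 and 48.7 in p30 and that of *Lrrc8d* at 16.7 and 11.0. The H3K27ac peak over the summit was wider in p42 at 67.9% of the active distal sites, with a median ratio of 1.12, but also at 66.6% of other distal acetylated p42 anti-CEBPA sites.

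Most active distal sites had H3K4me1 within 1 kb, and more summits were left uncovered in p42 than in p30. At the summit, 1027 sites (30.5%, 28.9 to 32.1) were covered by an H3K4me1 peak in p42 and 1815 (53.9%, 52.2 to 55.5) in p30. Within 1 kb of the summit, however, 91.2% (90.2 to 92.1) and 91.1% (90.1 to 92.0) had a peak. In p42, 1459 sites (43.3%) had peaks on both sides and none at the summit, and in p30 845 (25.1%) did. A summit covered in p30 only was seen at 900 sites (26.7%, 25.2 to 28.2), against 5.94% of all p42 anti-CEBPA sites, and one covered in p42 only at 112 (3.32%), against 2.84%. At the 2269 other acetylated distal sites the shares were 18.9% (17.3 to 20.6) and 7.76% (6.73 to 8.93).

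For H3K4me1 the chromatin of both lines was cut with micrococcal nuclease, and for the other targets it was sonicated. The part of this step in the gap was not tested. The coverage had a sharp minimum in p42. The share of sites covered was 54.9% at 300 bp before the summit, 38.4% at 100 bp before it and 30.5% at the summit. In p30 it was 61.3%, 56.5% and 53.9%. The H3K4me1 list of p30 held more peaks than that of p42, 168035 against 134658. When both lists were cut to equal size, the shares at the summit were 30.5% and 52.5%.

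**Figure D4:**
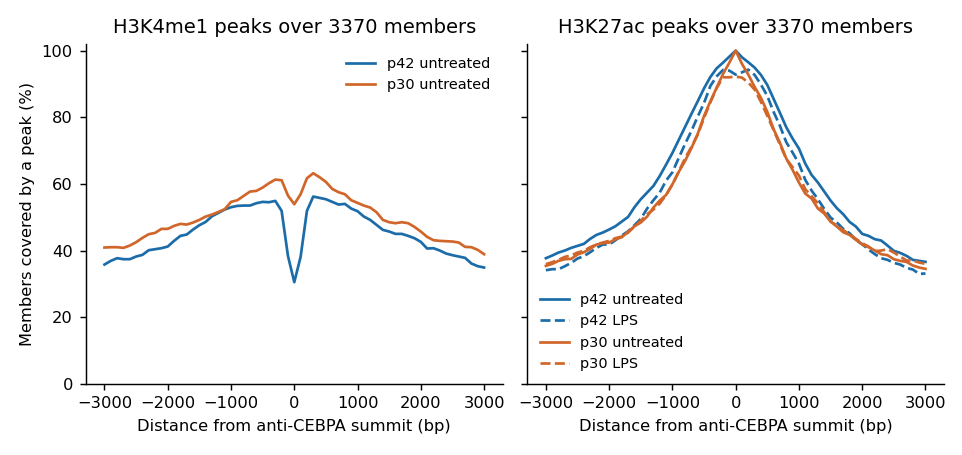
Share of the 3370 active distal sites covered by an H3K4me1 peak (left) or an H3K27ac peak (right) by distance from the p42 anti-CEBPA summit in bp; blue lines are p42, orange lines p30 and dashed lines LPS. H3K4me1 coverage drops to 30.5% at the summit in p42 and to 53.9% in p30; the untreated H3K27ac lines reach 100% there because the rule required it.

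The gap followed the strength of binding. In the strongest quartile of mean percentile, 20.6% of the summits were covered in p42 and 49.5% in p30, and in the weakest 41.9% and 59.0%. At 2269 other acetylated distal sites, which were missing from at least 1 binding list, 45.4% and 56.6% were covered. Among inactive distal sites only 24.4% and 22.8% had an H3K4me1 peak within 1 kb, and 7.78% and 8.95% had one at the summit.

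C/EBP sequences were common at the active distal sites but less so than at inactive ones. In windows of 200 bp, TTGCNNAA was in 52.0% (50.3 to 53.7) of the active distal sites, in 66.9% (65.9 to 68.0) of the inactive ones and in 7.45% of windows 5 kb to either side of the active ones. The difference from inactive sites was -15.0 points (-16.9 to -13.0). The palindrome TTGCGCAA, which lies inside TTGCNNAA, was in 1.81% against 7.77%, and TTGCACAA, likewise inside it, in 14.9% against 24.9%. The composite TGATGCAA, in contrast, was in 7.51% and 7.46% (difference 0.0426 points, -0.999 to 1.14). TGACGCAA was in 2.14% and 3.09%.

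Sequences of other hematopoietic factors were more frequent than at inactive sites. GAGGAAGT, a PU.1 sequence, was in 7.57% of the active and 2.13% of the inactive distal sites (difference 5.44 points, 4.52 to 6.43) and in 1.22% of the flanking windows. AACCACA, a RUNX sequence, was in 10.5% and 5.82% (4.68 points, 3.55 to 5.87). TGANTCA, the AP-1 sequence, was in 10.1% and 7.44% (2.65 points, 1.5 to 3.86), and CAGCTG, an E-box, in 12.3% and 7.45%, though flanking windows held the E-box in 9.35%. Against the 2269 p42 anti-CEBPA sites that were likewise distal and acetylated in both lines but missing from at least 1 binding list, PU.1 sequences were more frequent by 2.81 points (1.53 to 4.04) and RUNX sequences by 3.76 (2.28 to 5.21). For AP-1 that difference was 1.19 points (-0.391 to 2.72) and for the E-box -0.0113 (-1.78 to 1.72), and both intervals include 0. From inactive sites, the GATA sequence AGATAAG differed by 0.317 points (-0.362 to 1.06). The NF-kB sequence differed by -0.095 points (-0.233 to 0.0928) and the interferon-response sequence by 0.345 (-0.383 to 1.14).

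The active sites also had more GC, with a median of 47.5% against 40.0%, and ranked lower with anti-CEBPA. The part of base composition and rank in these differences was not tested. The letters of TTGCNNAA in another order (TGTCNNAA) were in 15.1% of the active, 17.9% of the inactive and 12.2% of the flanking windows, so they were not at the flanking level either.

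**Figure D5:**
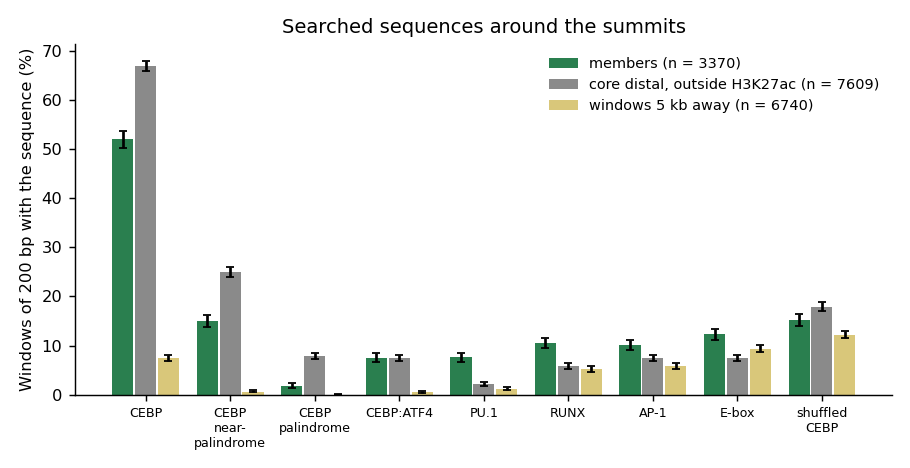
Share of 200 bp windows holding each searched sequence in 3370 active distal sites, 7609 inactive distal sites and 6740 windows 5 kb from the active sites, with Wilson 95% intervals. The C/EBP sequence is in 52.0%, 66.9% and 7.45%, and the PU.1 sequence in 7.57%, 2.13% and 1.22%.

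Stronger binding went with TTGCNNAA, and no such order was seen for the composite TGATGCAA, which was in 8.66%, 5.58%, 8.43% and 7.35% by quartile of mean percentile from the strongest to the weakest. At least 1 of TTGCNNAA, TGATGCAA and TGACGCAA was in 59.7% of the active distal sites. In the same order that share was 76.0%, 60.2%, 53.3% and 49.2%. TTGCACAA went from 27% to 8.42%, and the palindrome from 4.27% to 0.593%. PU.1 sequences stayed between 6.77% and 8.19% and RUNX sequences between 9.37% and 12.0%. The nearest C/EBP match lay a median of 12 bp from the summit in active sites and 6 bp in inactive ones. No C/EBP match was in 1358 sites (40.3%). These held PU.1 sequences more often, in 9.35% against 6.36% (difference with minus without -2.99 points, -4.93 to -1.15), and RUNX sequences, in 13.0% against 8.80% (-4.24 points, -6.46 to -2.10). AP-1 sequences were at 10.3% with and 9.79% without (0.494 points, -1.61 to 2.53). The reordered control was at 20.3% without and 11.6% with a C/EBP match, so it too was more frequent without one. In 842 sites (25%) none of the 3 C/EBP sequences and of the AP-1, PU.1, RUNX and E-box sequences was found.

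Copies of one interspersed sequence were among the strongest active distal sites. The windows of 133 sites (3.95%) shared 24 bases with the window of another, in 26 families. The largest family had 52 sites on 17 chromosomes, 38 of them intergenic and 14 in introns. This search was added after the data were seen. The 4 strongest sites with the leading 24 bases are shown, with those bases in capitals, read along the strand given.
Itch (chr2:154949297-154949360, plus strand): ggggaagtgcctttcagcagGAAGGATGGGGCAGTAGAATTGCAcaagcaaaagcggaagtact
Raet1e (chr10:22076325-22076388, minus strand): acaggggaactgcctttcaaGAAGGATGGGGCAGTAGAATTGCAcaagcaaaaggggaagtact
Ifi206 (chr1:173339333-173339396, plus strand): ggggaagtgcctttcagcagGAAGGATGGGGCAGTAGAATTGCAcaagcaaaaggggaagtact
Kif20b (chr19:35155549-35155612, plus strand): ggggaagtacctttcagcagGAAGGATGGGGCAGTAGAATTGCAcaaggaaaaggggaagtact
The bases that follow the capitals complete TTGCACAA. The 24 bases had 106 exact copies in the genome, and 91 p42 anti-CEBPA sites held them in their 200 bp window, 86 of which were common sites. Of these, 29 were active distal sites and 35 inactive ones. The 52 sites of the family had a median mean percentile of 18.2 (0.9 to 95.1), and 45 held a C/EBP match. The summit was in an LPS peak at 40 of them in p42 and at 46 in p30, while H3K4me1 covered 0 of 52 in p42 and 1 in p30. A count of 0 of 52, taken as fewer than 3 counts, allows a share of up to 5.77%.

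The second family came from the immunoglobulin heavy-chain locus on chromosome 12. *Zfp386* was the nearest protein-coding gene of 21 sites, more than any other, but they lay 163707 to 928039 bp from its start, over a span of 764595 bp with the starts of 30 annotated variable segment genes and 16 such pseudogenes. Of these sites, 13 formed the family.
Zfp386 (chr12:115109078-115109141, plus strand): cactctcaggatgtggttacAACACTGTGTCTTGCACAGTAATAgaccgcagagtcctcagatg
Zfp386 (chr12:115298673-115298736, plus strand): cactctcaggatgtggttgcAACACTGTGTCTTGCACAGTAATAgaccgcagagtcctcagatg
Zfp386 (chr12:115171686-115171749, plus strand): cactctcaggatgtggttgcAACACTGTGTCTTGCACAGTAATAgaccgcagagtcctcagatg
Its leading sequence had 18 exact copies in the genome, 10 p42 anti-CEBPA sites held it, and 3 of the 13 sites held a C/EBP match. H3K4me1 covered 4 of the 13 summits in p42 and 9 in p30. Reads from such copies can be placed at the wrong copy, so values of single sites in both families are uncertain.

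The active distal sites lay closer to genes than inactive ones. Introns held 1918 (56.9%), intergenic sequence 1297 (38.5%) and exons 155 (4.6%). The median distance to a protein-coding start was 16786 bp, against 47233 bp for inactive distal sites and 15356 bp for the other acetylated distal sites. They were not densely clustered, since 2646 had no other active distal site within 10 kb, and groups linked at that distance had at most 5. The group of 5 spanned 14525 bp near *Ccr1*, a chemokine receptor gene, at chr9:123731737-123746261. Groups of 4 lay near *Atf3*, a stress-induced factor gene, at chr1:190973788-190987090 and near 5 other genes or gene pairs, among them *Frmd8* and *Pla2g4a*. Chromosome X held 0.682% of the active distal sites but 2.05% of all p42 anti-CEBPA sites, and chromosome 11 held 7.27% but 4.51%.

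The nearest genes numbered 2281, which is 10.6% of 21562 protein-coding genes. One site was nearest to 1633 of them, and 47 had 5 or more. After *Zfp386*, *Fndc3b*, *Itpr1*, the calcium channel gene, and *Zfp36l2*, an RNA-binding protein gene, had 9 each. *Ltbp1* and *Tomm20* had 8. *Runx1*, which encodes a master factor of blood formation, *Ptprc*, which encodes CD45, *Ccr1*, *Cited2*, *Pde4d*, *Ankrd44* and *St8sia4* had 7. The LPS lists covered all 7 *Runx1* sites in both lines.

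Lists of genes are described by their counts beside the 10.6% of all genes. Of 15 myeloid factor genes, 12 had an active distal site as nearest (80.0%, 54.8 to 93.0), with 18 sites in all, 4 of them at *Klf6* and 2 each at *Gfi1*, *Id1* and *Rara*, which encodes a retinoic acid receptor. Of 13 stem and progenitor factor genes 7 had one, with 22 sites in all, 7 of them at *Runx1*, 5 at *Fli1* and 3 each at *Erg* and *Lmo2*. Of 24 stress and growth arrest genes 13 had one, including *Dusp1*, a MAP kinase phosphatase gene, with 4. Of 16 AP-1 genes 7 had one, with 5 sites at *Atf3* and the strongest at *Fosl2*, at a mean percentile of 3.25. Of 10 C/EBP and Tribbles genes 4 had one, with 3 sites at *Cebpb* and 2 at *Cebpe*, a factor of late granulocyte development.

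Counted from protein-coding starts, the lists of the inflammatory response and of granulocytes had lower shares than the myeloid factors. Their shares were near those of the AP-1 and C/EBP lists (43.8% and 40.0%). Of 32 cytokine and chemokine genes 12 had an active distal site as nearest (37.5%, 22.9 to 54.7), with 2 sites each at *Il12a* and *Osm* and 1 at each of the others, and of 32 Toll-like and NF-kB signalling genes 12 had one, with 5 sites at *Tnfaip3*, which encodes the inhibitor A20. Of 21 neutrophil granule and effector genes 8 had one (38.1%, 20.8 to 59.1), each with 1 site, such as *Mpo*, *Elane* and *Prtn3*, whose products are stored in azurophil granules, and *Cyba*, which encodes an oxidase subunit. Of 12 growth factor receptor genes 3 had one, *Csf3r*, *Kit* and *Flt3*. Of 18 genes of other lineages (erythroid, lymphoid and megakaryocyte), listed for comparison, 1 had one (5.56%, 0.988 to 25.8). Such counts do not show which cells were present.

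Nearest-gene counts depended on which starts were used. The alternative took a single start per annotated gene, non-coding genes included, in place of all starts of protein-coding transcripts. The nearest genes then numbered 2843, and no share over all annotated genes was computed. They included 3 of the 15 myeloid factor genes, 6 of the 21 neutrophil granule and effector genes and 0 of the 10 C/EBP and Tribbles genes. The granule list thus no longer had a lower share than the myeloid factors.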

How the data were processed

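ChIP-seq was done on 40 samples, of which 19 were inputs. Used here were 10 peak lists made from 20 mouse ChIP samples. The authors trimmed reads with Trim Galore 0.6.6, aligned them to mm39 with Bowtie2, removed duplicates with Picard and called peaks with MACS2 against input. The handling of reads that match several places was not given in the sources used here. The deposited lists give each peak's fold enrichment (a ratio over local background), its −log10 q value and the offset of its summit. They hold no read counts. The study states only a range of sequencing depth for all its samples, so the depth of each sample and the precision it gives are not known. A human ATF4 list was not used here.

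Sites were the p42 anti-CEBPA peaks on standard chromosomes. Starts were those of protein-coding transcripts in GENCODE release 39 (GRCm39). Peaks were matched by an overlap of at least 1 bp or by the position of a summit, and fold enrichment was turned into percentiles. H3K27ac peaks of the 4 lists were merged into regions, and each region was ranked in a list by its strongest peak there. A rank difference was called at 10 percentile points. Sequences came from the reference in windows of 200 bp. Shares have Wilson and differences Newcombe 95% intervals. Tools were pysam 0.24.0, pandas 2.3.3, scipy 1.17.1, numpy 2.4.6 and Python 3.11.15, and the functions were tested on simulated data.

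The members, lists and sequences were chosen with earlier results of these data known. Named sites were the 10 strongest, the strongest at each of 12 loci (*Fos*, *Csf1r* and *Cxcl10*, also looked for, had none), the 3 leaning most to each line, the 3 with most gain and the 3 with most loss of H3K27ac rank with LPS, the genes with most sites and 2 on either side of the distance limit. Examples of gene lists were those with most sites. Alternatives were other thresholds, overlaps, distances, windows, ranks and list sizes. Those on a peak within 1 kb, on counting sites in the p30 list beyond the number of members, on ranking lines by −log10 q and on leaving out sites with shared sequence were chosen after seeing the data. Counts of gene lists are over the genes found in the annotation, which lacked 1 of the listed granule genes and 1 of the listed cytokine genes. The name of one listed gene and the sequence of one site are not reported here.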

Additional observations from a re-analysis of the deposited data

Results flagged for a closer look

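In some H3K27ac regions with an active distal site the rank with LPS went opposite ways in the 2 lines by at least 10 percentile points. It was higher in p42 and lower in p30 in 19 of the 3089 regions (0.615%, against 2.98% of all 56649) and lower in p42 and higher in p30 in 26 (0.842%, against 2.83%). Both shares were below those of all regions. However, 1798 of the 3089 regions were in the strongest quartile, where ranks have less room to move, and shares at like strength were not computed. This difference was not tested, since each list pools its samples.

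Those named here, 4 in each direction, were chosen after their values were seen. The region near *Serp2* went from percentile 86.1 to 49.0 in p42 and from 51.4 to 87.4 in p30. That near *Raet1e* went from 61.4 to 35.4 and from 46.0 to 90.2. A site near *Raet1e* belongs to the interspersed family described above, whose values at single sites are uncertain. Those near *Mpp7* and *Dipk1a* moved likewise. In the other direction, the region near *Arap1* went from 59.8 to 90.4 in p42 and from 84.1 to 55.2 in p30, followed by those near *Prune2*, *Ermard* and *Bok*.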

How the results depend on the processing

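Of 95 alternative values of 37 results, 59 stayed by the rule used and 36 did not. A count stayed within a fixed factor of the main count, and a share or median within the 95% interval of the main value. The count of 2256 below thus stayed, against 3370 in the main setting. The share of 90.5% below did not, against 92.2%. Whether any turned round was not tested. The number of active distal sites was 2957 with q under 1e-05, 2957 with reciprocal overlap of 50%, 3005 beyond 2.5 kb, 2256 with lists of equal size, 3386 counted in the p30 list and 3237 without shared sequence. At 20 percentile points 3.53% leaned to p42 and 5.61% to p30. With q under 1e-05, 90.5% of summits were in p30 LPS H3K27ac, and 27.3% and 49.1% in H3K4me1 of p42 and p30. Counting a peak within 1 kb, these were 99.6% and 99.0% for LPS H3K27ac and 91.2% and 91.1% for H3K4me1. Ranked by −log10 q, 3.53% of regions were higher and 5.76% lower with LPS in p42, 5.31% and 10.1% in p30, and 2.75% untreated and 2.88% with LPS were stronger in p30. In windows of 100 and 400 bp the C/EBP sequence was in 45.8% and 56.3%, AP-1 in 5.76% and 16.5%, PU.1 in 4.09% and 10.5%, RUNX in 5.73% and 16.9%, the E-box in 6.08% and 21.4% and the reordered control in 9.35% and 25%. With starts of any gene, listed genes numbered 3 for AP-1, 0 for C/EBP and Tribbles, 3 for stem and progenitor factors, 3 for myeloid factors, 0 for receptors, 5 for cytokines, 2 for Toll-like and NF-kB signalling, 3 for stress and 0 for other lineages. For neutrophil granule and effector genes this number was 6. The cause was not tested where no wider window or other set of starts shows it. No paired analysis was possible because each list pools its samples or comes from 1, and for that reason no replicate could be left out.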
